A study of Brassica oleracea with 15 samples.

Results

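Expansins are wall proteins that loosen the links between cellulose and other wall polymers without cutting them, and they work best in acidic walls, such as those of growing stems. The plant family is divided into alpha-expansins (EXPA), beta-expansins (EXPB), and the expansin-like A and B proteins (EXLA, EXLB), whose loosening activity is less well established. In hypocotyls, the seedling stems below the cotyledons, wall loosening accompanies the faster growth of the flank that drives bending towards light or away from gravity. Described here are 6 expansin probe sets out of 22810 on the array, each of them assigned to a single gene in the array's annotation: the alpha-expansins EXPA8, EXPA9, EXPA15 and EXPA18, the beta-expansin EXPB3 and the expansin-like gene EXLA2.

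All samples were flank sections from the outer hypocotyl of wild-type Brassica oleracea seedlings that were 3 days old and dark-grown, with about 100 seedlings pooled per sample. The stimulated seedlings received 2 h of blue light from one side or 2 h of gravity stimulation, and the controls a mock stimulation. The 15 arrays made 5 groups of 3: shaded flank and lit flank (blue light), bottom flank and top flank (gravity), and unstimulated control flanks. Shaded and bottom are the flanks that elongate more, and lit and top are called the opposite flanks. Flanks were assigned by the sample titles. The extraction notes do not settle them: those of the lit samples name only the shaded side as collected, those of 2 bottom samples name the top and a shaded side, and the other stimulated samples' notes name both sides. The direction of every flank difference therefore rests on the titles. Seedling pools are described by the submitters as biological triplicates. A pool averages over many seedlings, so fewer cells of a type and less RNA per cell cannot be told apart.

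The values are the linear signal of Arabidopsis ATH1 probe sets hybridised with Brassica RNA. Names are therefore those of the Arabidopsis genes the probes were designed for, a probe set may collect several Brassica copies of a gene, and the signal of a gene was compared only with itself on other arrays. The trimmed mean signal was 500 on all arrays. With 3 arrays per group, it is their number that bounds the precision. All 6 expansins were among the 11371 brighter probe sets that were tested: EXPA8 was brighter than 98.1% of probe sets, EXPA9 than 97.9%, EXLA2 than 96.5%, EXPA15 than 90.1%, EXPB3 than 80.2% and EXPA18 than 73.0%. Of 10 epidermal marker genes, 1 matched a named probe set, FDH, which acts in cuticle formation in the epidermis. Its signals were 823.3 to 2083.5 in the shaded, 1032.4 to 1813.7 in the lit and 1492.5 to 2063 in the bottom flank. They were 1902.5 to 2591.8 in the top flank and 1270.8 to 1658.6 in the control. All top arrays thus lay above all lit and all control arrays. Top and control arrays did not overlap, in either direction, for 18% of all tested probe sets. The share for top and lit was not counted. Any part of the FDH difference in the expansin values was not tested. None of the 13 vascular, 9 leaf and 11 seed storage markers matched, so the makeup of the flanks was checked no further.

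None of the 6 expansins differed among the 5 groups beyond the spread between arrays once all tested probe sets were accounted for (limma moderated F test with Benjamini-Hochberg adjustment, threshold 0.05), where 1.29% of all tested probe sets passed. EXPB3 came closest (adjusted p = 0.24), followed by EXPA8 (0.36) and EXPA9 (0.38), and EXLA2, EXPA15 and EXPA18 had adjusted p values of 0.68, 0.82 and 0.92. At an unadjusted p under 0.05 there was 1 expansin, EXPB3, against 13.8% of all tested probe sets. When the 5 groups were ordered by level for each gene, the arrays of neighbouring groups overlapped in all 24 neighbouring pairs. Groups next to each other by mean are the likeliest to overlap, and the share over all tested probe sets was not counted. This overlap therefore does not bear on whether the groups differ. The span from the lowest to the highest group mean was 1.07 on the log2 scale for EXPB3, 0.64 for EXPA9, 0.47 for EXLA2, 0.45 for EXPA8, 0.35 for EXPA15 and 0.32 for EXPA18. The median span of all tested probe sets was 0.56, and 12.4% had a larger one than EXPB3.

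**Figure D1:**
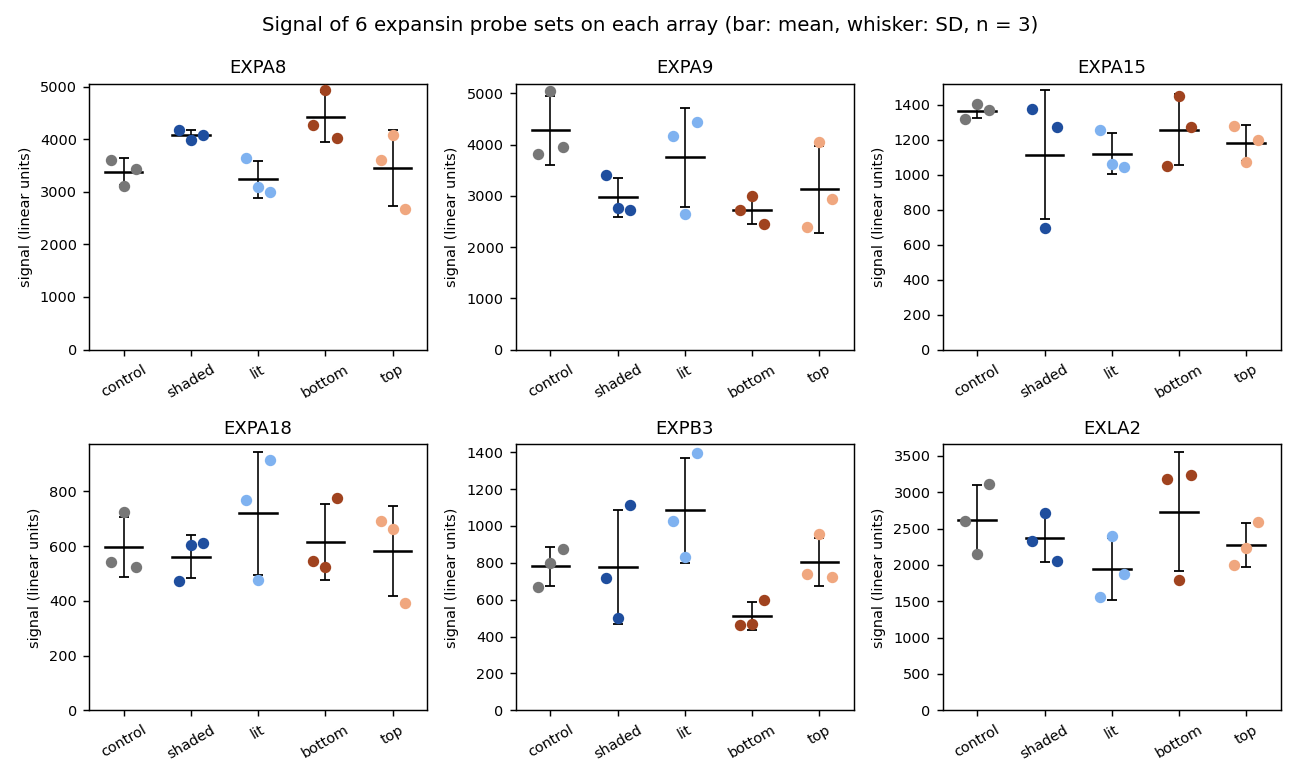
Linear signal of the 6 expansin probe sets (vertical axes from 0) on each of 15 arrays by group; points are arrays, bars are means and whiskers are SD (n = 3). EXPA8 arrays of the shaded and bottom flank sit at 3986.3 and above, EXPB3 is lowest in the bottom flank, and EXPA9 has its highest mean in the control.

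The flank comparison asked whether expansin transcripts differ between the elongating and the opposite flanks. Over both stimulations 3 of the 6 had estimates above and 3 below 0 on the elongating side, and their median log2 difference was -0.05 against -0.0041 for all tested probe sets. None passed the threshold, and 0.237% of all tested probe sets did. At an unadjusted p under 0.05 there were 2, EXPA8 on the higher and EXPB3 on the lower side, against 8.63% of all tested probe sets.

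EXPA8, an alpha-expansin, had signals of 4183.7, 3986.3 and 4074.7 in the shaded flank and 3647, 3088.9 and 2989.7 in the lit flank. After gravity stimulation it had 4280.9, 4946.6 and 4027.5 in the bottom flank and 3606.2, 4082.8 and 2670.2 in the top flank, and the control had 3608.5, 3103.6 and 3433.1. Its shaded arrays lay above all lit arrays and its shaded and bottom arrays above all control arrays, while 1 top array, of 4082.8, reached into the range of the elongating flanks. EXPA8 was estimated at 1.28-fold higher in the elongating flanks (log2 difference 0.35, 95% interval 0.12 to 0.59, adjusted p = 0.29, limma, n = 6 and 6). The estimate was 0.34 in blue light (95% interval -0.001 to 0.68, adjusted p = 0.93) and 0.37 in gravity (0.03 to 0.71, adjusted p = 0.61). EXPA8 also varied least between arrays of a group, with a residual SD of 0.18 on the log2 scale against a median of 0.35 for all tested probe sets, and 94.0% of these had a larger one. The 95% interval for both stimulations, not adjusted for the number of probe sets, put the EXPA8 difference in probe set signal at no more than 1.51-fold.

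EXPB3, the beta-expansin among the 6, had signals of 464.5, 466.8 and 598.1 in the bottom flank and 736.8, 954 and 723.4 in the top flank. It had 720, 500.1 and 1111 in the shaded flank, 1026.4, 834 and 1394.5 in the lit flank, and 667.3, 801.6 and 873.1 in the control. Every bottom array lay below every top array and every control array, while the shaded arrays overlapped every other group. EXPB3 was estimated at 1.51-fold lower in the elongating flanks (log2 difference -0.59, 95% interval -0.999 to -0.18, adjusted p = 0.31, limma, n = 6 and 6). The difference was -0.53 in blue light (-1.10 to 0.05, adjusted p = 0.95) and -0.66 in gravity (-1.23 to -0.08, adjusted p = 0.58).

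The remaining 4 expansins had combined flank intervals that included 0. EXLA2, the expansin-like member, had signals of 2331, 2712.7 and 2056.3 in the shaded flank and 1552.4, 2396.5 and 1878 in the lit flank. After gravity stimulation it had 3182.6, 1785.9 and 3235.6 on the bottom side and 1998.6, 2237 and 2592.2 on the top side. The flanks overlapped in both stimulations, and the bottom flank held the 2 highest arrays of all groups. Its combined log2 difference was 0.26 (95% interval -0.08 to 0.61, adjusted p = 0.70). EXPA9 had a combined difference of -0.24 (-0.56 to 0.08, adjusted p = 0.71), with -0.31 in blue light and -0.17 in gravity.

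EXPA18 is known in Arabidopsis as a root hair alpha-expansin. Its signals were 470.7, 604.5 and 610.1 in the shaded flank, 769.8, 474.9 and 914.5 in the lit flank and 546.4, 522.6 and 774 in the bottom flank. They were 691.8, 663.5 and 391.8 in the top flank, and 542.4, 722.9 and 523.6 in the control. All 5 groups overlapped, and the combined difference was -0.11 (-0.54 to 0.33, adjusted p = 0.93), with -0.32 in blue light and 0.10 in gravity. EXPA7, the other root hair alpha-expansin of Arabidopsis and the 1 gene of 6 on the root list that matched, was below the signal filter, with signals of 77.7 to 359.4.

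EXPA15 had signals of 1374, 696.3 and 1274.6 in the shaded flank and 1256.8, 1062.1 and 1042.8 in the lit flank. After gravity stimulation it had 1048.7, 1450.5 and 1272.8 in the bottom flank and 1275.8, 1072.7 and 1198.6 in the top flank. A single shaded array, replicate 2 at 696.3, lay far below the other arrays. The combined log2 difference of EXPA15 was 0.01 (-0.33 to 0.34, adjusted p = 0.99), the closest to 0 of the 6. Its difference was -0.06 in blue light and 0.08 in gravity, and the blue light estimate became 0.25 without shaded flank replicate 2.

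**Figure D2:**
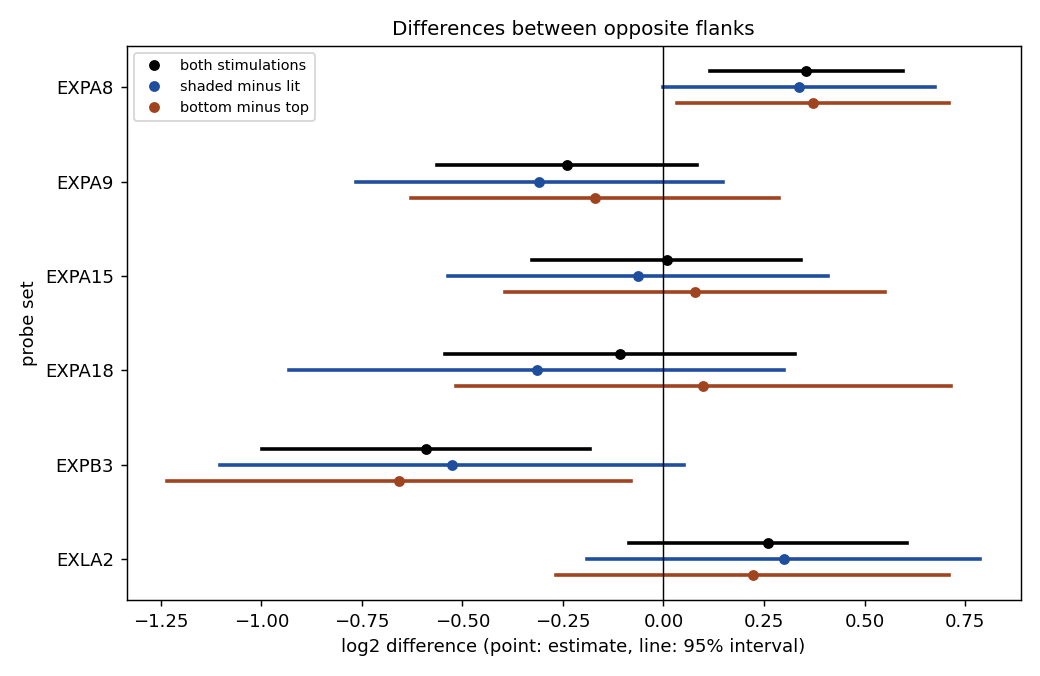
Log2 difference of each expansin probe set between opposite flanks (horizontal axis) over both stimulations, in blue light and in gravity; points are limma estimates and lines are 95% intervals. The combined interval lies above 0 for EXPA8 (0.12 to 0.59) and below 0 for EXPB3 (-0.999 to -0.18), and includes 0 for the other 4; no difference passed the adjusted threshold.

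Taken by stimulation, no expansin passed in shaded against lit, where 0% of all tested probe sets passed, nor in bottom against top, where 0.0352% did. Unadjusted p was under 0.05 for 0 of the 6 in blue light (5.26% of all tested probe sets) and for 2 in gravity (7.49%). The groups did not overlap for 1 expansin in blue light (EXPA8, against 10.5% of all tested probe sets) and for 1 in gravity (EXPB3, against 12.5%). With both stimulations pooled, 0 expansins and 0.633% of tested probe sets had flanks that did not overlap. An interaction term tested if the flank difference of a gene was unlike in blue light and gravity. The estimates ran from -0.41 for EXPA18 to 0.13 for EXPB3, 0 passed or had an unadjusted p under 0.05 (limma, adjusted p = 1.00 for all 6), and 0% of tested probe sets passed, with 3.37% at an unadjusted p under 0.05. All interaction intervals included 0. Their outermost bounds on the log2 scale were -1.28, for EXPA18, and 0.95, for EXPB3, while the interval of EXPA8 ran from -0.51 to 0.44. A difference between stimulations within a gene's own interval therefore remains possible.

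The comparisons with the control asked what stimulation changed in each flank. They share the same 3 control arrays, and the labels give no batches of seedlings or arrays, so a batch and a stimulation cannot be told apart. EXPA9 had its highest mean in the control and gave the largest difference. Its signals were 3822.7, 5053.5 and 3956.4 in the control, 3415.9, 2772.9 and 2729.1 in the shaded, 4178.1, 2647 and 4438 in the lit, 2725.9, 3007.3 and 2445 in the bottom flank and 2391.4, 4050.4 and 2945.9 in the top flank. All shaded and all bottom arrays lay below all control arrays, while 2 lit arrays and 1 top array lay within the control range.

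The mean of both gravity flanks had a log2 difference of -0.56 from the control for EXPA9 (95% interval -0.95 to -0.16, adjusted p = 0.19, limma), which was the smallest adjusted p of any of the 6 in any of 13 comparisons. For blue light it was -0.37 (-0.76 to 0.03, adjusted p = 0.52). By flank the EXPA9 estimates were -0.64 in the bottom, -0.52 in the shaded, -0.47 in the top and -0.21 in the lit flank, with adjusted p values of 0.24, 0.61, 0.41 and 0.80. Beside this, the log2 signal of the 3 prime less that of the 5 prime probe sets, averaged over 3 control transcripts as a sign of RNA length, stood at 0.06 ± 0.30 (SD, n = 3) on the control arrays, -0.31 ± 0.15 after blue light (n = 6) and -0.17 ± 0.11 after gravity stimulation (n = 6). Its part in the EXPA9 values was not tested.

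EXPB3 had a log2 difference of -0.62 from the control in the bottom flank (95% interval -1.19 to -0.04, adjusted p = 0.42) and of 0.45 in the lit flank (-0.13 to 1.03, adjusted p = 0.61). EXPA8 had 0.38 in the bottom flank (0.04 to 0.72, adjusted p = 0.38) and 0.27 in the shaded flank (-0.07 to 0.61, adjusted p = 0.75). For EXLA2 the largest difference was in the lit flank, -0.44 (-0.93 to 0.05, adjusted p = 0.52), against control signals of 2604.7, 2144.1 and 3112.3. EXPA15 had tightly grouped control signals, 1318.5, 1401.4 and 1372.2, and all 4 flank estimates were below them, at -0.35 shaded, -0.29 lit, -0.21 top and -0.13 bottom. All lit and all top arrays of EXPA15 lay below the control arrays, and no adjusted p of the 4 single flanks was under 0.71. Blue light against control had an adjusted p of 0.62 for EXPA15. Without shaded flank replicate 2 the shaded estimate of EXPA15 became -0.04.

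None of the 6 passed against the control in any flank or stimulation. The share of all tested probe sets that passed was 0.22% for blue light, 0.73% for gravity, 0.00879% for the shaded, 0.361% for the lit, 0.431% for the bottom and 0.853% for the top flank. Arrays of flank and control did not overlap for 2 expansins in the shaded (13.3% of all tested probe sets), 1 in the lit (17%), 3 in bottom flanks (16.9%), and 1 in top flanks (18%). The 3 in the bottom flank were EXPA8, above the control, and EXPA9 and EXPB3, below it.

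**Figure D3:**
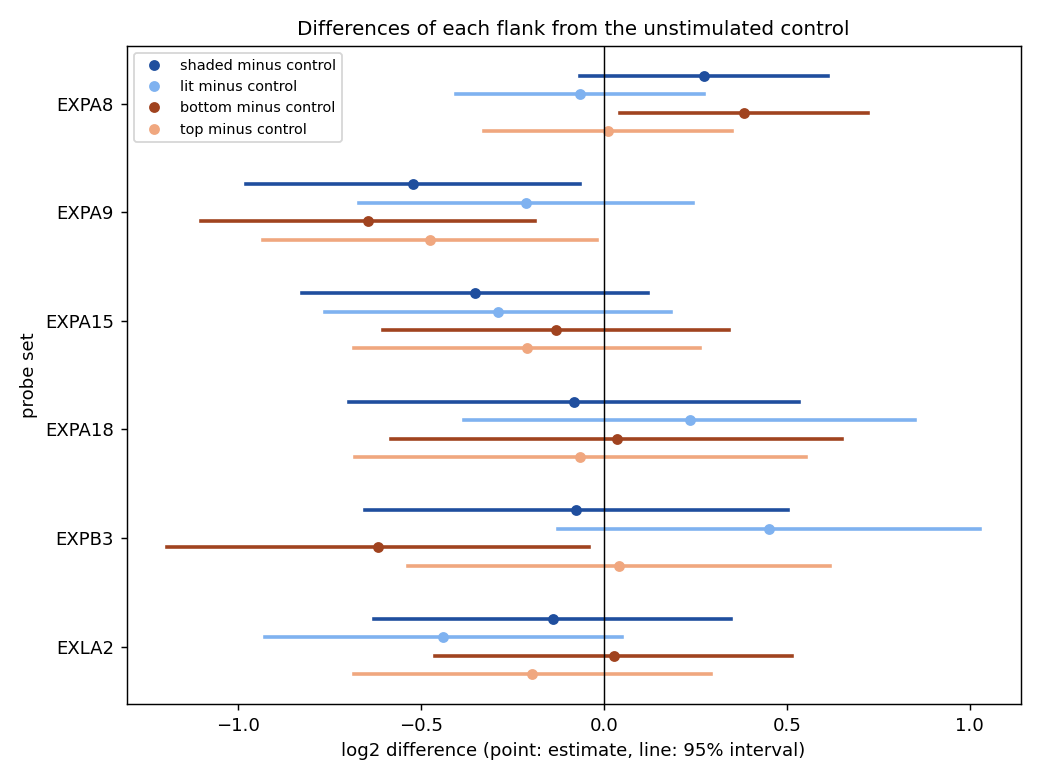
Log2 difference of each flank from the unstimulated control (horizontal axis) for the 6 expansin probe sets; points are limma estimates and lines are 95% intervals. EXPA9 estimates are below 0 in all 4 flanks (-0.64 to -0.21), and EXPB3 runs from -0.62 in the bottom to 0.45 in the lit flank; none passed the adjusted threshold.

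The stimulations were also compared with each other, which uses no control arrays. EXPB3 had a higher mean over the blue light flanks than over the gravity flanks, by a log2 difference of 0.48 (95% interval 0.07 to 0.88, adjusted p = 0.24, limma, n = 6 and 6), and by 0.54 in shaded against bottom (-0.04 to 1.12, adjusted p = 0.49). The other 5 had differences between -0.21 and 0.19 in blue light against gravity. No expansin passed, against 2.22% of all tested probe sets in blue light against gravity, 0.29% in shaded against bottom and 0.0879% in lit against top. Over all 13 comparisons, which share arrays, 11 of 78 expansin values had an unadjusted p under 0.05, where 9.62% of the values of all tested probe sets did. These were 4 for EXPA9, 4 for EXPB3 and 3 for EXPA8.

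The intervals set how large a difference could have gone unseen. Leaving out the interaction, no interval of EXPA8 reached beyond 1.65-fold in any comparison, and none of EXPA15 beyond 1.77-fold. The widest bounds were 1.91-fold for EXPA18, 1.90-fold for EXLA2, 2.14-fold for EXPA9 and 2.35-fold for EXPB3. A p that missed the threshold therefore does not show that flanks had the same level.

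The 6 expansins did not share a pattern over the arrays. Pearson r of log2 signal between pairs of them ran from -0.50 (EXPA8 and EXPB3) to 0.50 (EXPA9 and EXPB3) over 15 arrays, with a median of -0.0044 over the 15 pairs. These values describe arrays that share a scaling and groups, and carry no test. By the same measure, the most similar patterns among 6278 other tested single-gene probe sets were those of AT4G29520 for EXPA8 (r = 0.87), AT2G30620 for EXPA9 (0.79), AT3G20790 for EXPA15 (0.90), AT1G63720 for EXPA18 (0.79), AT5G15910 for EXPB3 (0.89) and AT3G59440 for EXLA2 (0.80). The next were AT5G47030 and AT3G54100 for EXPA8 (0.78 and 0.77), INO and AT5G57300 for EXPA9 (both 0.78), AT3G04200 and AT2G30050 for EXPA15 (0.88 and 0.87), AT4G28990 and AT4G32050 for EXPA18 (0.74 and 0.73), AT4G09830 and AT4G01330 for EXPB3 (0.81 and 0.78), and AT4G35500 and AT1G78170 for EXLA2 (0.77 and 0.76). As the highest of so many values, these are high by choice.

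Another 12 expansins were found by symbol among the probe sets with 1 listed gene. Any on the 8794 probe sets with no listed gene or the 503 with several symbols were not looked at. Of the 12, 5 were tested: the beta-expansins EXPB1, EXPB2 and EXPB5, the alpha-expansin EXPA24 and the expansin-like B gene EXLB1. None passed in any comparison, and 4 of their 65 values had an unadjusted p under 0.05, where 9.62% of the values of all tested probe sets did. All 4 belonged to EXPA24, in bottom against control, shaded against bottom, gravity against control and the interaction, which share its bottom arrays. Over both stimulations 3 had estimates above and 2 below 0 on the elongating side (median log2 difference 0.06). The smallest adjusted p was 0.23, for EXPA24 in bottom against control, a log2 difference of -1.53 (95% interval -2.58 to -0.47). EXPA24 had signals of 386.8, 292 and 88.2 in the bottom flank and 1101.5, 563.8 and 384.2 in the control, so the groups met at 386.8 and 384.2. EXPB1 had combined flank estimates near 0, 0.09 (-0.19 to 0.38, adjusted p = 0.90).

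The other 7, EXPA4, EXPA7, EXPA16, EXPA20, EXPA21, EXLA1 and EXLA3, were too dim for the main test, and in a fit of all 22746 probe sets none passed in any comparison. EXPA4, an alpha-expansin named here after its values were seen, had signals of 94.1, 78.5 and 86.8 in the bottom flank, and 476.7, 357.6 and 723.1 in the top flank. It had 311.1, 85.4 and 288.4 in the shaded flank, 476.7, 263.9 and 755.3 in the lit flank, and 44.1, 126.3 and 133.4 in the control. All lit and top arrays lay above all control arrays, and all top arrays above all bottom arrays. Among the brighter, tested probe sets, groups did not overlap in either direction for 17% (lit and control), 18% (top and control) and 12.5% (bottom and top). In that fit the combined log2 difference of EXPA4 was -1.87 (95% interval -2.77 to -0.97, adjusted p = 0.18), and the bottom minus top difference -2.53 (-3.80 to -1.26, adjusted p = 0.26). EXLA3 went the other way, with a combined difference of 1.19 (0.24 to 2.13, adjusted p = 0.54). Its bottom minus top difference was 1.44 (0.10 to 2.79, adjusted p = 0.68). EXPA21 had 2.04 in bottom minus control (0.42 to 3.65, adjusted p = 0.40).

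**Figure D4:**
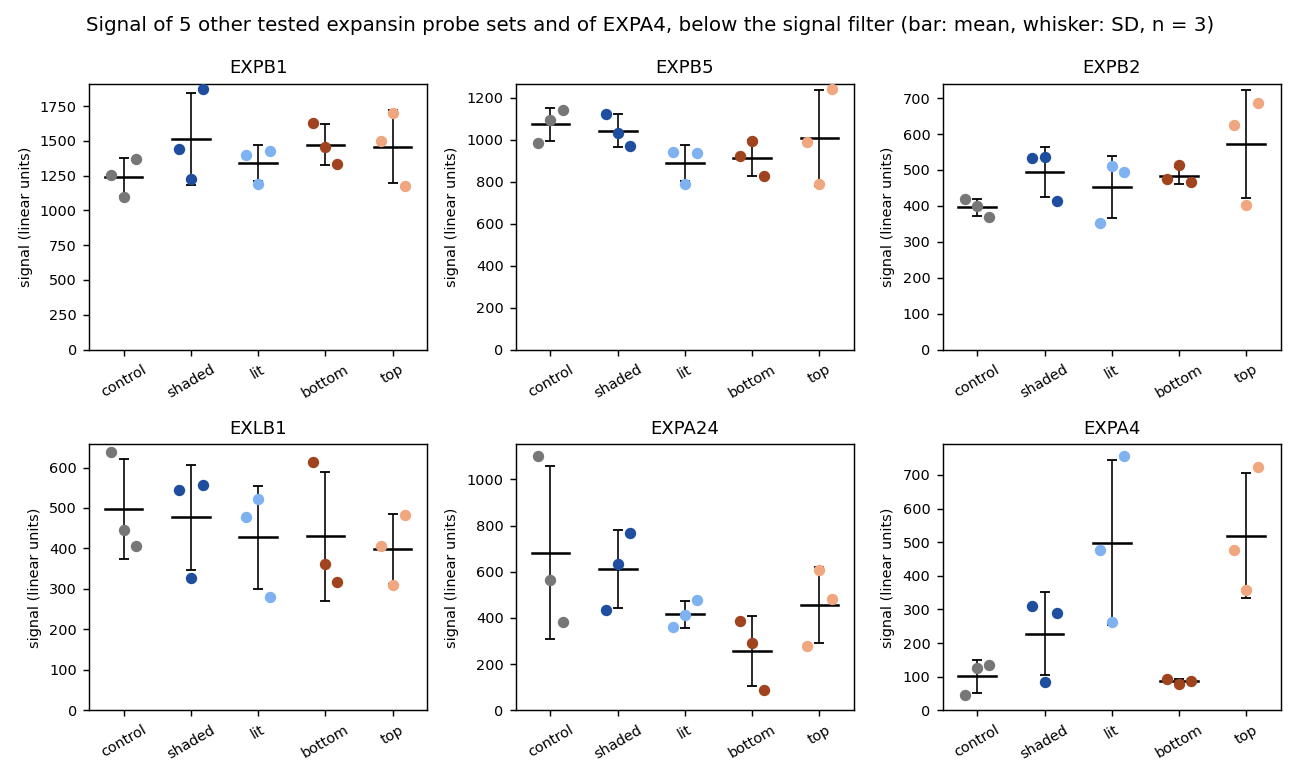
Linear signal (vertical axes from 0) of the 5 other tested expansin probe sets and of EXPA4, which was below the signal filter, on each of 15 arrays by group; points are arrays, bars are means and whiskers are SD (n = 3). EXPA4 has all top arrays at 357.6 or more and all bottom arrays at 94.1 or less; no difference passed the adjusted threshold.

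Among genes that act with expansins, no plasma membrane proton pump, which acidifies the wall, matched a named probe set. Of the cell wall enzyme list 6 genes were tested, all of them XTHs, which cut and rejoin xyloglucan chains. In the combined flank comparison 0 passed, with 5 higher and 1 lower estimates and a median log2 difference of 0.34, against -0.05 for the 6 expansins. XTH32 and XTH20 passed in blue light against gravity, with log2 differences of 1.03 (adjusted p = 0.0092) and -0.88 (adjusted p = 0.027), and XTH32 in lit against control, with 1.55 (adjusted p = 0.019). Of all tested probe sets, 2.22% passed in blue light against gravity and 0.361% in lit against control. Of the auxin response list 13 genes matched a named probe set, and 3 were bright enough to be tested. That list was chosen with earlier results of these data known, so its calls are no independent check of the arrays. WES1, which encodes an auxin-conjugating enzyme, and the homeodomain gene HAT2 were higher in the elongating than in the opposite flanks. Their log2 differences were 0.94 and 1.23 (adjusted p = 0.0057 and 0.017), on the same arrays on which EXPA8 had 0.35. Of all tested probe sets, 0.237% passed in that comparison. Against the control neither passed in the shaded flank (0.81 and 0.86, adjusted p = 0.23 and 0.43) or the bottom flank (0.76 and 0.64, adjusted p = 0.072 and 0.41), and HAT2 had -0.97 in the top flank (adjusted p = 0.14). WES1 also passed in bottom against top, at 1.104 (adjusted p = 0.048), where 0.0352% of all tested probe sets did. This call was lost under 18 of 24 alternatives (adjusted p 0.027 to 0.18). The calls of HAT2 in the combined flanks, XTH32 in lit against control and XTH20 were lost under 4, 5 and 9 alternatives, most of which left out 1 array, with adjusted p up to 0.064, 0.10 and 0.070. The third, GH3.9, was not past the threshold in any comparison.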

How the data were processed

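Hypocotyl flanks of 15 Brassica oleracea samples were measured on 1 array each. The deposited values are intensities, the linear signal per probe set that GCOS 3.0 gave the authors (per the submitters' processing notes). Its settings and the array dates are not given in the sources used. All arrays had the same trimmed mean, so the values had been scaled per array before deposit. The 64 control probe sets were left out, 1 value at or below 0 was set to 0.4, log2 was taken with no offset, and probe sets with a mean log2 signal at or above the median, 8.28, were tested. limma 3.58.1 (R 4.3.3) fitted 5 group means to the 15 arrays together (intensity trend, 10 residual degrees of freedom), with Benjamini-Hochberg adjustment over 11371 probe sets in each of 13 comparisons and an F test. The fit was tested on simulated data. Gene names come from the array's annotation table, in which 13513 probe sets carry 1 symbol.

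The expansins, lists and comparisons were chosen with earlier results of these data known. All 6 expansins were named, with the 3 tested genes of highest Pearson r to each. Lists were matched by symbol, and up to 3 called members, or the 2 of smallest p, were to be named. EXPB1, EXPA4, EXLA3, EXPA21 and GH3.9 were described outside that rule after their values were seen. Fits were repeated with other normalizations, filters, variance models, an offset, a replicate block and without each array. Same-numbered flanks had correlations of their deviations from group means between -0.02 and 0.15, and the labels do not say that numbers mark a shared pool, so samples were not treated as paired.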

Additional observations from a re-analysis of the deposited data

Results flagged for a closer look

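The 6 expansins were each examined in 4 sets of 6 arrays (blue light, gravity, elongating flanks and opposite flanks), 24 sets in all, for an array that stood apart by Dixon's test; chance would pick out about 1 set in 20. In 1 set it did. EXPA8 in bottom flank replicate 2 had a signal of 4946.6, while the other 5 elongating flank arrays lay between 3986.3 and 4280.9, and the gap made up 0.67 of the whole range on the log2 scale, above the critical value of that test at the 95% level.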

How the results depend on the processing

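The count of expansins past the threshold was 0 in every comparison under all 24 alternatives, of which 9 changed the normalization, filter, offset, variance model, weights, arrays or block and 15 left out 1 array each. For 35 of the 78 expansin differences the log2 value was recomputed under each alternative, and 14 of those 840 values changed sign, the largest of them to 0.25 (EXPA15 in shaded minus lit without shaded replicate 2). EXPA15 over both flanks became -0.028 with array weights and ran from -0.083 to 0.16 on leaving out 1 array. On leaving out 1 array, EXPA15 ran from -0.25 to 0.25 in shaded minus lit and from -0.030 to 0.20 in bottom minus top, EXPA18 from -0.16 to 0.25 and EXPA9 from -0.35 to 0.033 in bottom minus top, and EXPA9 from -0.35 to 0.021 in lit minus control; the cause was not tested. The combined flank difference of EXPA8 stayed between 0.27 and 0.42 and that of EXPB3 between -0.74 and -0.45, with adjusted p values of 0.17 to 0.52 and 0.14 to 0.56. The EXPA9 difference between gravity and control stayed between -0.66 and -0.43 (adjusted p 0.097 to 0.53). With a replicate block EXPA8 and EXPB3 kept combined differences of 0.35 and -0.59 (adjusted p = 0.17 and 0.14), and the count of all probe sets in that comparison went from 27 to 42. Counts over all probe sets moved more than those of the expansins: by alternative and by array left out, they ran from 4 to 42 and 5 to 29 in the combined flanks, from 0 to 13 and 0 to 7 in bottom minus top, from 9 to 60 and 1 to 61 in blue light minus control, from 37 to 169 and 30 to 99 in gravity minus control, from 0 to 1 and 0 to 10 in shaded minus control, from 1 to 93 and 6 to 58 in lit minus control, from 19 to 60 and 17 to 54 in bottom minus control, from 25 to 131 and 21 to 92 in top minus control, from 4 to 42 and 9 to 32 in shaded minus bottom, from 4 to 21 and 5 to 14 in lit minus top, from 106 to 299 and 132 to 252 in blue light minus gravity, and from 43 to 218 and 63 to 157 in the F test. The background shares depend on these choices. Among the other named genes, WES1 in the combined flanks and XTH32 in blue light minus gravity passed under all 24. HAT2 in the combined flanks was lost under 4 (without shaded replicate 2, lit replicate 3 or bottom replicate 3, and without the intensity trend), XTH32 in lit minus control under 5 (without lit replicate 3, control replicate 1 or control replicate 2, without the trend, and with only the compared groups), XTH20 in blue light minus gravity under 9 (7 of them single arrays left out) and WES1 in bottom minus top under 18 (13 of them single arrays). Dim probe sets vary more, which limits what can be said of EXPA4, EXLA3 and EXPA21.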
